A study of Mus musculus with 6 samples.

Results

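The BCL2 family decides, at the mitochondrial outer membrane, whether a cell lives or dies. Pro-survival members (BCL2, BCL-XL, MCL1 and A1) hold the effectors BAX and BAK in check, and BH3-only members (BIM, PUMA and NOXA) bind into a groove of the pro-survival proteins and release or activate the effectors, which then open the membrane and let cytochrome c out. FAS is a death receptor of the cell surface that activates caspase-8, and germinal center B cells carry it at high levels. Germinal center B cells live or die by this balance: they depend on MCL1, and signals through CD40 induce *Bcl2l1* and *Bcl2a1*.

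Here 10 genes were followed, of 24499 in the gene table: *Bcl2*, *Bcl2l1* (BCL-XL), *Mcl1* and *Bcl2a1b* (A1), the BH3-only genes *Bcl2l11* (BIM), *Bbc3* (PUMA) and *Pmaip1* (NOXA), the effectors *Bax* and *Bak1*, and *Fas*. They were chosen by symbol as the survival and death genes of the family plus *Fas*, with earlier results of these data known. All 10 were among the 13296 genes that passed the filter on low counts. RNA-seq had been done on in vitro germinal center B cells (iGCBs): naive splenic B cells on irradiated 40LB feeder cells, a BALB/c 3T3 fibroblast line engineered to present CD40L and BAFF, in medium holding 1 ng/ml of IL-4. After 3 days YFP+ cells were sorted for 3 cKO and 3 control libraries, which the study calls biological replicates; the labels do not say how many mice or cultures each came from, so p-values measure the spread between these libraries. The cKO mice carried Eif3e fl/fl, Cγ1Cre and the Rosa26 YFP reporter that Cre switches on. The control mice carried Cγ1Cre and the same reporter, so Cre activity was shared by both groups. Cγ1Cre is made from the Ighg1 locus, which resting B cells do not use. The mice were on a C57BL/6J background, and the sources used here give no age for each library. *Eif3e* encodes a subunit of the translation initiation factor eIF3.

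Totals were 39079582 to 45504570 estimated counts per library. Levels are given as CPM, each gene's counts relative to the total of its library, scaled by TMM, and 3 counts, the limit that a count of 0 allows, came to between 0.0661 and 0.0763 CPM for counting error only. *Eif3e* was at 149.8 to 173 CPM in cKO and at 392 to 424 CPM in control libraries, 39.0% of control. *Xist* was at 1184 CPM or more in 1 of 3 cKO and 2 of 3 control libraries and at 0.389 CPM or less in the others, so sex was not balanced between the groups. All 8 B cell markers were detected, with a summed level of 4884 to 5078 CPM in cKO and 4694 to 5044 CPM in control. Of 8 germinal center markers, 5 were lower and 1 (*Fas* itself) was higher, with a sum of 283 to 298 against 385 to 461 CPM. Of 6 plasma cell markers tested, 2 were higher and 4 lower, with a sum of 960 to 1129 against 1326 to 1387 CPM. Fibroblast markers of the feeder summed to 101 to 115 CPM in cKO and 63.2 to 128 CPM in control, with 2 of 12 tested higher and 1 lower, and *Lum* and *Postn* at 0 in every library. T cell markers summed to 2.83 to 3.37 against 7.29 to 12.2 CPM with *Cd3e* at 0 throughout, and both of those tested (*Cd5* and *Lat*) were lower. Myeloid markers summed to 4.08 to 6.06 against 1.22 to 2.45 CPM, with *Cd14*, *Elane* and *S100a8* at 0, and 1 of 2 tested was higher. The part of these differences in the results below was not tested, and fewer cells of a type cannot be told apart from less RNA per cell.

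Most proteins compared here share the BH3 motif, a short helix through which members of the family bind each other. The coding stretches that encode it are shown because they are what the opposing members have in common. They are read from GENCODE M21 transcripts on GRCm38, 45 bases each, with capitals for the codon of the conserved leucine and for the codons of the small residue and the aspartate after it. A search of the translated coding sequences for leucine, any 3 residues, glycine or alanine, aspartate, and then aspartate, glutamate or glycine found 1 match in each of the 7 genes below. It found none in *Bcl2a1b* or *Fas*, which says only that these letters do not occur there, and *Pmaip1* was not searched.
*Bcl2* (chromosome 1, leucine at codon 94 of 236): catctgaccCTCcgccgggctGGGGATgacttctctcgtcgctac
*Bcl2l1* (chromosome 2, leucine at codon 90 of 233): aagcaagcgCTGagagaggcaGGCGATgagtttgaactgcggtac
*Mcl1* (chromosome 3, leucine at codon 194 of 331): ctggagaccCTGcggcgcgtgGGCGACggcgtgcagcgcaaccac
*Bcl2l11* (chromosome 2, leucine at codon 94 of 140 in the NM_207681 form): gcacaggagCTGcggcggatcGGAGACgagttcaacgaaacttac
*Bbc3* (chromosome 7, leucine at codon 141 of 193): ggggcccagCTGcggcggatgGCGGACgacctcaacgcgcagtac
*Bax* (chromosome 7, leucine at codon 63 of 192): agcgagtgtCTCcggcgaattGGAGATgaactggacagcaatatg
*Bak1* (chromosome 17, leucine at codon 76 of 209): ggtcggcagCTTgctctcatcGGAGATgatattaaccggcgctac

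In cKO iGCBs, the pro-survival genes and the effectors each moved in both directions, while the BH3-only genes that passed the test fell. *Bcl2l1* rose the most and *Bcl2l11*, which encodes an antagonist of its protein, fell the most. *Bcl2*, *Bax* and *Fas* also rose, *Mcl1*, *Bbc3* and *Bak1* fell, and *Bcl2a1b* and *Pmaip1* did not pass the test. By edgeR's quasi-likelihood test with Benjamini-Hochberg adjustment over all genes, 8 of 10 members had an adjusted p under 0.05, where 48.6% of all genes tested did. Of these, 4 were higher (24.1% of all genes) and 4 were lower (24.5% of all genes). With a fold change over 1.5 as well, 4 of 10 remained, against a background of 21% of genes: *Bcl2l1*, *Bcl2* and *Bax* upward and *Bcl2l11* downward. In 8 of 10 members the ranges of both groups stood apart, as they did in 58.7% of all genes tested. The members' median log2 fold change was -0.15, against -0.0040 for all genes, and the median of its absolute value was 0.57 against 0.35. Two-sided exact permutation tests of single members cannot go below p = 0.1 with 3 against 3 libraries, and all 8 members without overlap were at that limit.

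**Figure D1:**
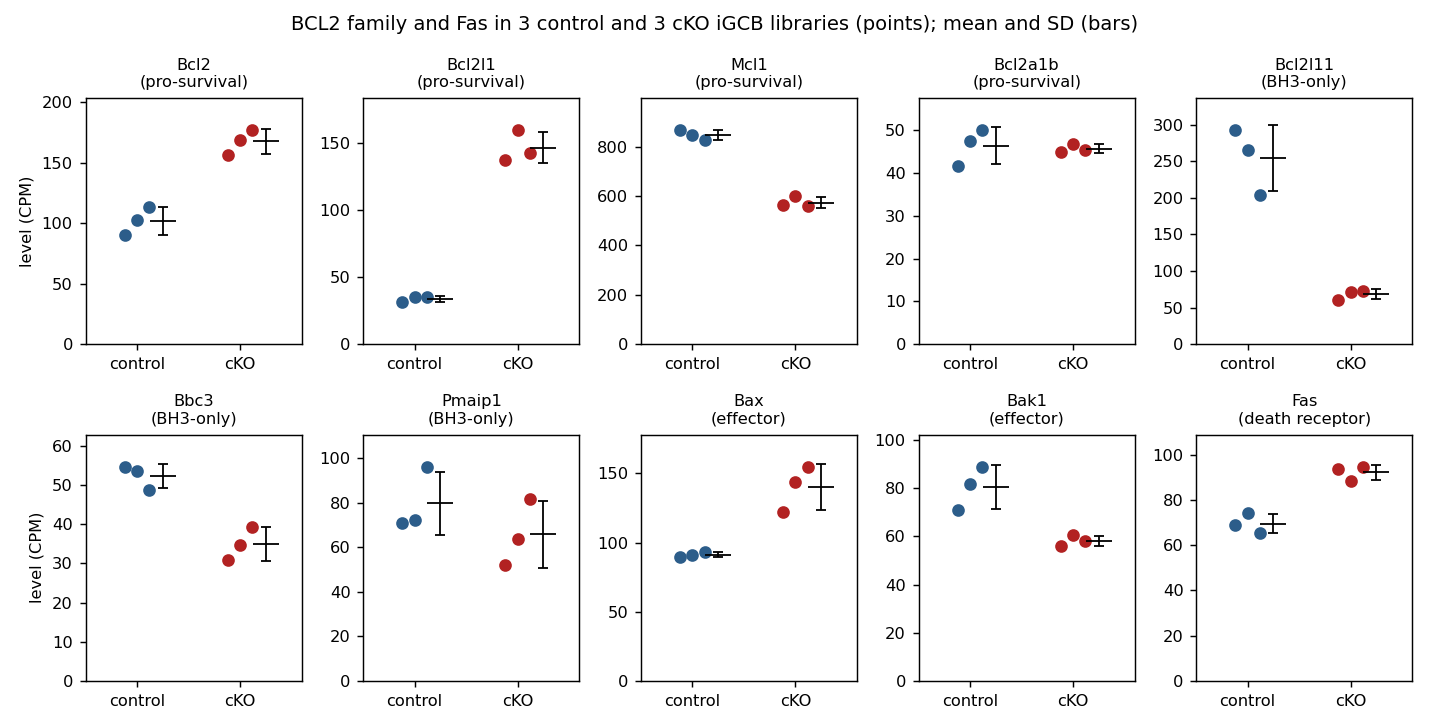
Level of each member in CPM (vertical axis from 0) in the 3 control (blue) and 3 cKO (red) libraries, with mean and SD as black bars beside the points. Points of the 2 groups are apart in 8 panels and overlap for *Bcl2a1b* and *Pmaip1*. Each panel has its own axis, and relative to it the widest separations are those of *Bcl2l1* and *Bcl2l11*.

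Among the pro-survival genes, *Bcl2l1* (GRCm38.p6 chr2:152758732-152833803, minus strand) was at 137, 159.9 and 143 CPM in cKO replicates 1 to 3 and at 31.3, 35.1 and 35.3 CPM in control replicates 1 to 3. Every cKO library was thus far above every control library. The rise was 4.33-fold, with a log2 fold change of 2.12 (SE 0.0760, adjusted p = 2.67e-07). *Bcl2*, the founding member of the family (chr1:106538176-106714290, minus strand), was at 157, 169 and 177 CPM in cKO and at 90.3, 103 and 113 CPM in control. It rose 1.64-fold (log2 fold change 0.72, SE 0.0825, adjusted p = 6.59e-05), and the lowest cKO library was above the highest control. *Mcl1* (chr3:95656944-95663179, plus strand), which encodes a short-lived protein that germinal center B cells need, went the other way. It was at 565, 599 and 558 CPM in cKO and at 867, 846 and 829 CPM in control. The cKO mean was 67.7% of control (log2 fold change -0.56, SE 0.0462, adjusted p = 8.51e-06), a change under 1.5-fold whose groups stood apart.

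*Bcl2a1b* (chr9:89199273-89207838, plus strand), one of the mouse copies of the gene for A1, was at 45.0, 46.8 and 45.4 CPM in cKO and at 41.7, 47.5 and 50.0 CPM in control. The groups overlapped, and the log2 fold change was -0.02 (95% interval -0.20 to 0.16, adjusted p = 0.852). That interval leaves out changes as large as 1.5-fold. The copies are near identical, so the division of reads between them is uncertain. In the 519 coding bases, *Bcl2a1b* differed from *Bcl2a1d* at 6 and from *Bcl2a1a* at 11, and *Bcl2a1a* from *Bcl2a1d* at 7. The first 60 coding bases hold 6 of the 12 positions where these copies differ, given here in capitals, and the longest run that *Bcl2a1b* and *Bcl2a1d* share is 217 bases.
*Bcl2a1a*: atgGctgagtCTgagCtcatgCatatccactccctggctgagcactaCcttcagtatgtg
*Bcl2a1b*: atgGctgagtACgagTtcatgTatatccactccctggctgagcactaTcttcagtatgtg
*Bcl2a1d*: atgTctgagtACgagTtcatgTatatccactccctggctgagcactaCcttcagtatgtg
With the counts of all copies summed, the level was 79.2 to 85.7 CPM in cKO and 80.4 to 91.5 CPM in control. The log2 fold change of this sum was -0.04 (95% interval -0.18 to 0.10, adjusted p = 0.612), so the sum did not pass the test either.

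Among the BH3-only genes, *Bcl2l11* (chr2:128126038-128162547, plus strand) was at 60.6, 71.3 and 73.3 CPM in cKO and at 293, 266 and 204 CPM in control. Its protein, BIM, binds every pro-survival member and is a main killer of B cells that lack survival signals. The lowest control library stood well above the highest cKO library, although the controls themselves ranged more widely than those of most members. The cKO mean was 26.9% of control (log2 fold change -1.89, SE 0.124, adjusted p = 2.59e-06). *Bbc3* (chr7:16308398-16318334, plus strand), a p53 target, was at 30.8, 34.6 and 39.3 CPM in cKO and at 54.7, 53.5 and 48.8 CPM in control. It fell to 66.7% of control (log2 fold change -0.58, SE 0.0976, adjusted p = 0.000705), just inside 1.5-fold.

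*Pmaip1* (NOXA; chromosome 18), whose protein binds mainly MCL1 and A1, was at 51.9, 63.9 and 81.7 CPM in cKO and at 71.0, 72.1 and 96.1 CPM in control. The highest cKO library exceeded 2 controls. Its log2 fold change was -0.28 (95% interval -0.63 to 0.076, adjusted p = 0.178). That range holds both no change and a fall past 1.5-fold. Leaving out single libraries moved the value between -0.46 and -0.12. Among those fits it passed the test without cKO replicate 3 (adjusted p = 0.0250). With the replicate number as a block in the edgeR fit it also passed (log2 fold change -0.29, adjusted p = 0.00991), although the numbers were not taken as pairs.

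The effectors, which do the same work once active, moved apart. *Bax* (chr7:45461695-45466903, minus strand) was at 122, 144 and 155 CPM in cKO and at 89.3, 91.2 and 93.0 CPM in control, and *Bak1* (chr17:27019812-27028627, minus strand) was at 56.2, 60.4 and 58.3 CPM in cKO and at 70.9, 81.9 and 89.0 CPM in control. All cKO libraries were above the controls for *Bax* and below them for *Bak1*. *Bax* rose 1.54-fold (log2 fold change 0.62, SE 0.0807, adjusted p = 0.000142), and *Bak1* fell to 72.3% of control (log2 fold change -0.47, SE 0.0818, adjusted p = 0.000942). Without cKO replicate 3, the log2 fold change of *Bax* was 0.54, under 1.5-fold. *Fas* (chr19:34290647-34327775, plus strand) was at 93.7, 88.5 and 94.6 CPM in cKO and at 69.0, 74.0 and 65.4 CPM in control. Its rise was 1.33-fold (log2 fold change 0.41, SE 0.0616, adjusted p = 0.000360). It was the 1 germinal center marker that rose while 5 of the others fell.

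**Figure D2:**
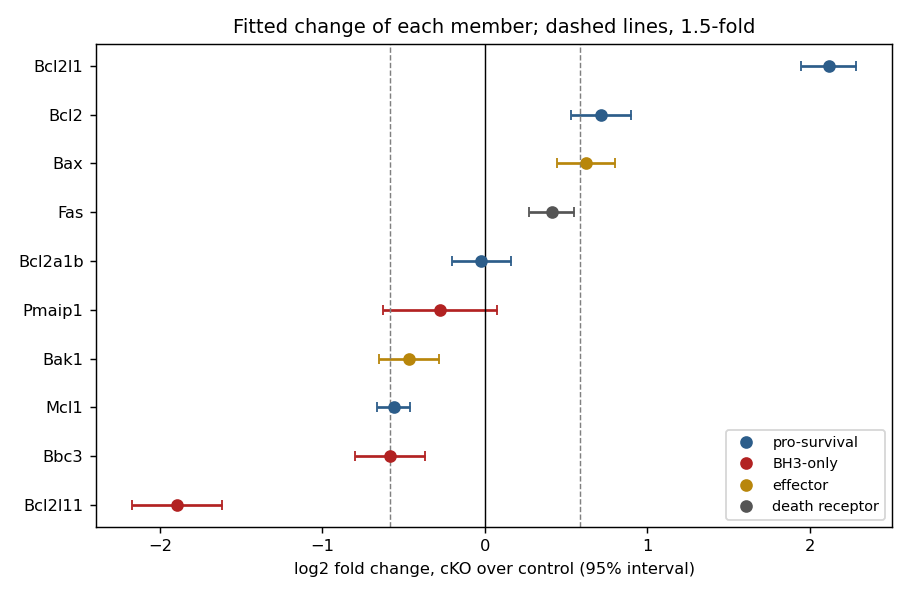
Fitted log2 fold change of each member, cKO over control (horizontal axis), with its 95% interval from edgeR, coloured by role; dashed lines mark 1.5-fold. The interval of *Bcl2l1* lies wholly above the upper line and that of *Bcl2l11* wholly below the lower one, while those of *Bcl2*, *Bax*, *Mcl1*, *Bbc3*, *Bak1* and *Pmaip1* cross a line.

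Tested against a change of 1.5-fold itself rather than against none (glmTreat in edgeR), *Bcl2l1* and *Bcl2l11* alone among the members stayed past the threshold. *Bcl2* then had an adjusted p of 0.173 and *Bax* one of 0.666.

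To compare members with each other, counts were divided by transcript length (CPM per kb). In control iGCBs the order was led by *Mcl1* at 248 ± 5.67 (SD, n = 3) CPM per kb, followed by *Bax* at 105 ± 2.09 and *Bcl2l11* at 72.9 ± 10.3. *Bcl2a1b* (56.8 ± 5.25) and *Fas* (49.0 ± 3.26) came next. *Bcl2l11* overlapped *Bcl2a1b*, and *Bcl2a1b* overlapped *Fas*. Then followed *Bak1* (33.8 ± 3.82), *Pmaip1* (29.2 ± 5.21) and *Bbc3* (28.9 ± 1.71), each overlapping its neighbour. *Bcl2* (14.4 ± 1.55) and *Bcl2l1* (13.6 ± 0.776) were lowest and overlapped each other.

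In cKO iGCBs *Bcl2l1* had moved from the tenth place to the fourth and *Bcl2l11* from the third to the ninth. *Mcl1* (168 ± 6.41) and *Bax* (162 ± 19.4 CPM per kb) were now level within their spread. *Fas* (66.3 ± 1.80), *Bcl2l1* (58.6 ± 5.28) and *Bcl2a1b* (55.9 ± 1.18) followed, with *Bcl2l1* overlapping both of its neighbours. The lowest members lay between 19.2 and 24.4 CPM per kb in the mean, in the order *Bak1*, *Pmaip1*, *Bcl2*, *Bcl2l11* and *Bbc3*, and each overlapped the next.

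**Figure D3:**
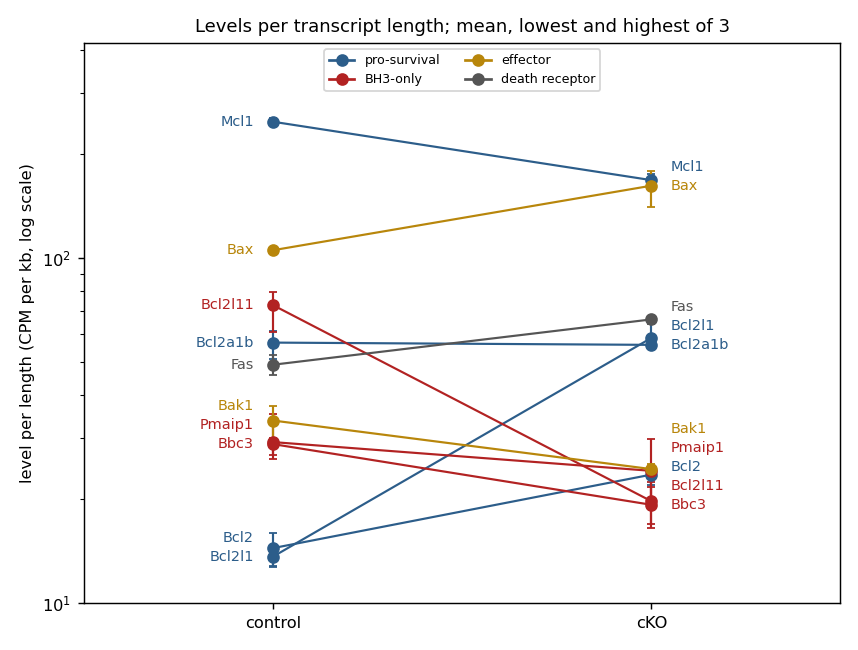
Level of each member per kb of transcript (CPM per kb, log scale) in control and cKO iGCBs; points are means of 3 libraries, and bars run from the lowest to the highest. *Bcl2l1* climbs from 13.6 to 58.6 CPM per kb and crosses *Bcl2l11*, which drops from 72.9 to 19.7.

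The ratio of *Bcl2l1* to *Bcl2l11*, a pro-survival gene over its BH3-only antagonist, was 3.32, 3.18 and 2.52 in cKO replicates 1 to 3 on the per-kb scale. In control replicates 1 to 3 it was 0.162, 0.176 and 0.232. *Bcl2l11* transcripts thus outnumbered those of *Bcl2l1* in every control library, and the reverse held in every cKO library. The ratio of *Bcl2* to *Bcl2l11* crossed 1 in the same way, at 1.11 to 1.33 in cKO and 0.164 to 0.261 in control. The per-kb scale rests on the estimated division of *Bcl2l11* counts between transcripts of 2301 to 5036 bases. Whether this ratio exceeds 1 in cKO is therefore less certain. *Mcl1* exceeded *Bcl2l11* in both groups, by 7.31 to 10.0 times in cKO and 3.12 to 3.97 times in control. The ratio of *Bax* to *Bak1* was 5.97 to 7.32 in cKO against 2.88 to 3.47 in control. These ratios describe transcripts and not proteins.

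Summed over *Bcl2*, *Bcl2l1*, *Mcl1* and *Bcl2a1b*, levels were 297 to 321 CPM per kb in cKO and 330.3 to 334 in control. The other pro-survival genes tested (*Bcl2a1a*, *Bcl2a1d* and *Bcl2l2*) are not part of this sum. The sum was slightly lower in cKO while its make-up differed. *Mcl1* took 54.4% to 55.6% of it in cKO and 72.6% to 76.8% in control. *Bcl2l1* took 18.4% to 20.1% in cKO and 3.85% to 4.24% in control, and *Bcl2* took 7.40% to 8.28% and 3.88% to 4.77%. The share of *Bcl2a1b* was 17.8% to 18.5% in cKO and 15.4% to 18.3% in control, with overlap.

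In the deposited estimates per transcript, 6 members have 1 RefSeq form, and *Bcl2*, *Bcl2l1*, *Bcl2l11* and *Fas* have more. *Bcl2l11* transcripts encode BIM proteins of 196 residues (NM_207680), 140 residues (NM_207681), 110 residues (NM_009754) and 91 residues (NM_001284410 and NM_001291016). The 140-residue form NM_207681 was estimated at 807, 1512 and 1427 counts in cKO and at 5841, 5554 and 5070 counts in control. It fell with the gene (log2 fold change -2.21, adjusted p = 0.00304). The 196-residue form was at 1369, 1065 and 781 counts in cKO and at 5549, 2315 and 1584 in control, with a log2 fold change of -1.61 that missed the threshold (adjusted p = 0.0523). Both forms were lower in every cKO library than in every control library.

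Of *Bcl2l1*, NM_001289716 was at 3460, 2289 and 4145 counts in cKO and at 396, 700 and 628 counts in control (log2 fold change 2.43, adjusted p = 0.00591). NM_009743, which encodes the same 233 residues, was at 2261, 4337 and 1134 counts in cKO and at 1016, 511 and 696 in control (log2 fold change 1.72, adjusted p = 0.0533). Its share of the gene ran from 18.7% to 60.3% among the cKO libraries alone, so the estimates of single transcripts varied far more than that of the gene. Over 99% of the *Bcl2* counts in cKO and 98.6% or more in control came from the form of 236 residues (NM_009741). *Fas* counts came mainly from the full receptor of 327 residues (NM_007987), at 95.7% to 96.9% in cKO and 97.3% to 97.8% in control.

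A change in the share of a gene that 1 transcript takes (edgeR's diffSpliceDGE) was called for 0 of the 12 member transcripts tested, and 0 had an unadjusted p under 0.05; 0.615% of the 7646 transcripts tested were called. On simulated data this test recovered 0.592% of 2-fold and 33.1% of 8-fold changes in single transcripts. Most shifts of either size would thus be missed, so the 0 calls cannot show that transcript use was unchanged.

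**Figure D4:**
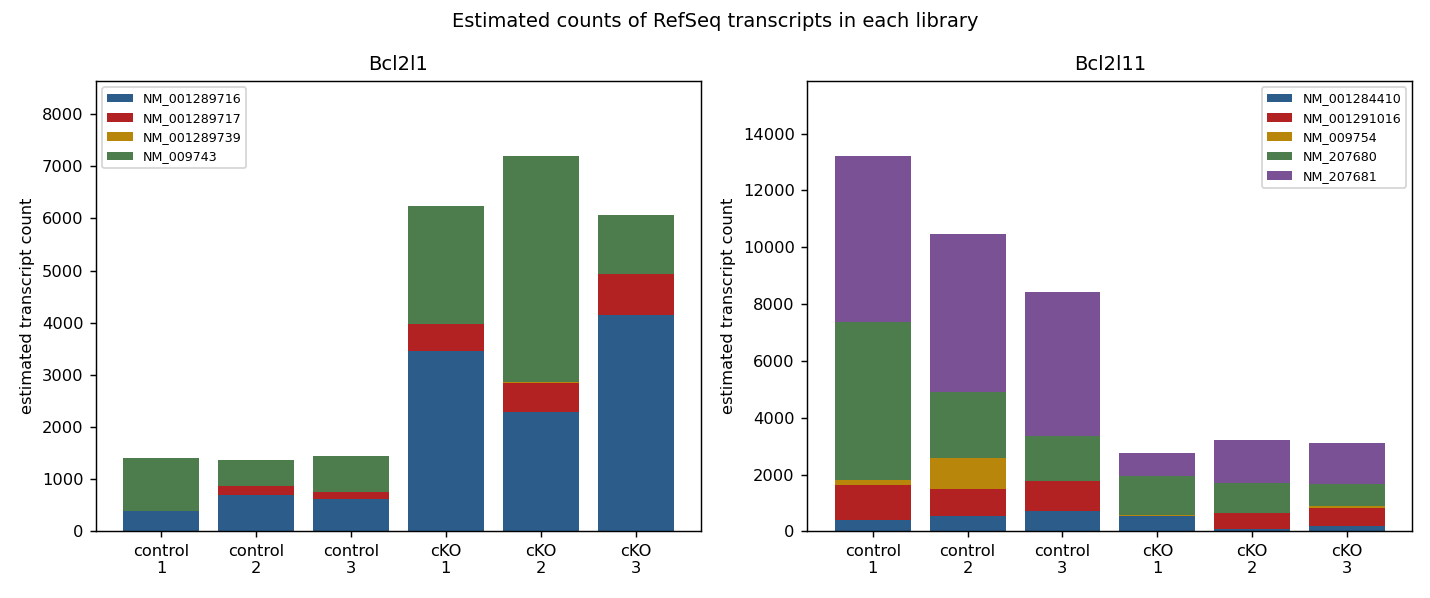
Estimated counts of each RefSeq transcript (stacked colours, vertical axis) of *Bcl2l1* and *Bcl2l11* in each control and cKO library. Total heights separate the groups for both genes, while the division between transcripts differs among libraries of 1 group, for example in *Bcl2l1* among the cKO libraries.

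The start regions of all members but *Pmaip1* were searched for 5 short motifs on both strands, in RefSeq windows of GRCm38.p6 from 250 bases before to 50 after each start. The motifs were GTAAACA (forkhead), TTCNNNNGAA (STAT6, the factor that IL-4 activates), CACGTG (E-box), TGATGNAA (C/EBP-ATF) and GGGNNNNNCC (NF-kB). Of 32851 promoter windows, 3.65% held the forkhead motif, 6.95% the STAT6 motif, 7.15% the E-box, 3.97% the C/EBP-ATF motif and 50.8% the loose NF-kB motif, which is too common to describe a gene by. The E-box occurred in *Bax*, *Bbc3* and *Fas* and the C/EBP-ATF motif in *Bcl2a1b*. The forkhead letters stood 227 bases before a start of *Bcl2l11* and, on the reverse strand, 167 bases before one of *Bbc3*, and the STAT6 letters began 4 bases before the most downstream of the listed starts of *Bcl2l1*. The other listed start windows of *Bcl2l11*, *Bbc3* and *Bcl2l1* did not hold these forkhead or STAT6 letters. These matches are shown in capitals as descriptions of sequence, and no binding was measured.
*Bcl2l11* chr2:128125791-128125837, plus strand: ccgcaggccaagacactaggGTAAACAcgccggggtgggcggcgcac
*Bbc3* chr7:16310074-16310120, plus strand: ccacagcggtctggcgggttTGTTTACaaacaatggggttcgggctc
*Bcl2l1* chr2:152828464-152828513, minus strand: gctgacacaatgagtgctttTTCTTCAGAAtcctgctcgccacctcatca

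Around the members, 56 other genes of the pathway were listed, and 51 could be tested: 15 were higher, 14 lower and 22 did not pass, with 7 and 11 past 1.5-fold. Over all genes tested, 24.1% were higher, 24.5% lower and 21% past both cutoffs, and the counts of this and the following lists are descriptions beside those shares. Their median log2 fold change was -0.09. *Hrk*, *Bok* and *Fasl* had at most 10 counts in any library, and *Bcl2a1c* and *Bcl2l10* had 0. Of the other BH3-only genes, 1 of 4 tested was higher and 1 lower. *Bmf*, which encodes an activator of death in cells that lose attachment or growth signals, fell from 35.2 to 6.48 CPM (log2 fold change -2.44, adjusted p = 7.41e-05), a larger fitted fall than that of *Bcl2l11*. *Bid*, which links death receptors to the mitochondria, rose from 68.2 to 112 CPM (log2 fold change 0.72, adjusted p = 1.21e-05). None of the 3 other pro-survival genes tested passed, at an adjusted p of 0.199 for *Bcl2l2* (BCL-W) and 0.728 and 0.574 for *Bcl2a1a* and *Bcl2a1d*.

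Of 7 effector-like and related genes tested, 1 was higher and 3 lower. *Bnip3* and *Bnip3l*, receptors for the removal of mitochondria, were lower, with log2 fold changes of -0.99 and -0.81 (adjusted p = 0.0147 and 0.00159), although DESeq2 gave *Bnip3* an adjusted p of 0.0514. Among 13 apoptosome and mitochondrial death genes, 6 were higher and 3 lower. *Cycs* (cytochrome c) and *Apaf1*, which binds it, rose by 0.90 and 0.71 on the log2 scale. The initiator *Casp9*, *Casp6* and *Endog* had log2 fold changes of -0.83, -1.09 and -0.77. Parts of 1 complex thus differed in direction, with *Apaf1* up and *Casp9* down.

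Of 14 death receptor genes tested, 3 were higher and 5 lower. *Tnfrsf10b* (the TRAIL receptor) rose from 13.1 to 28.1 CPM and *Cflar* (FLIP, which blocks caspase-8) from 86.3 to 161 CPM, with log2 fold changes of 1.10 and 0.90. *Fcmr*, the IgM receptor once called TOSO, had a log2 fold change of -1.41, *Tnf* -0.73, *Traf2* -0.71 and *Tradd* -0.62. *Fas* therefore rose together with an inhibitor of its pathway, while its adaptor *Fadd* and *Casp8* did not pass (adjusted p = 0.233 and 0.101). Of 5 inhibitor of apoptosis genes, 1 was higher (*Birc2*, log2 fold change 0.65) and 2 were lower. Of 5 regulators of BCL2 protein turnover, 3 were higher and none lower, and none of these changes passed 1.5-fold. *Usp9x*, a deubiquitinase that stabilizes MCL1, was among those that rose (log2 fold change 0.56, adjusted p = 8.33e-06), while *Mcl1* itself fell.

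**Figure D5:**
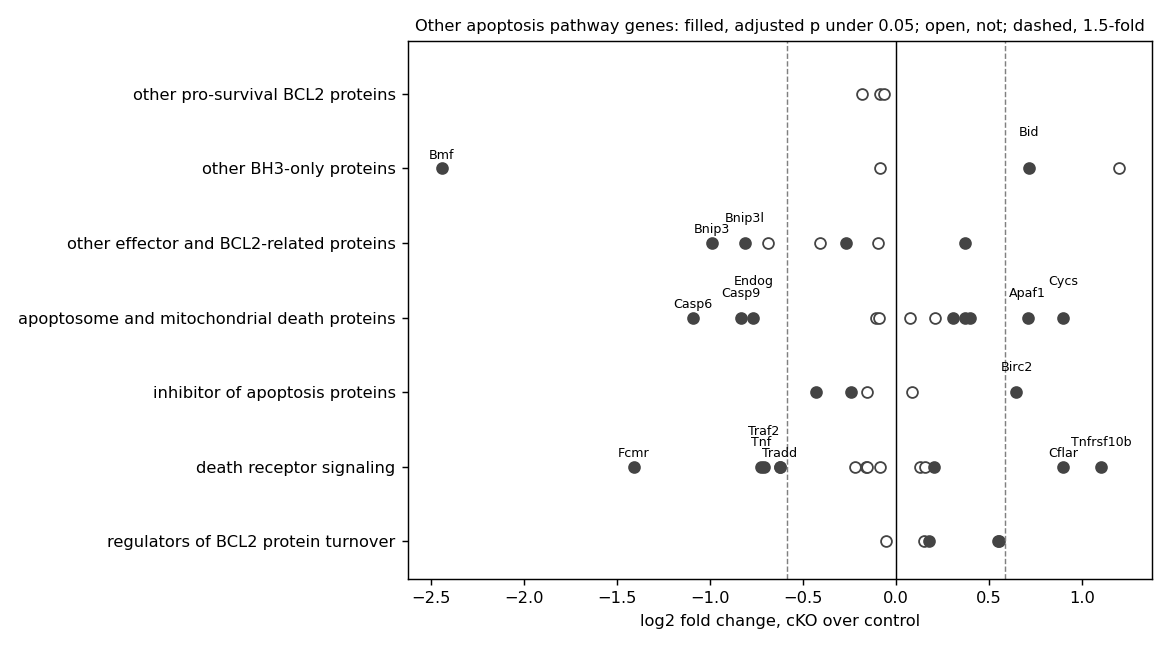
Log2 fold change, cKO over control (horizontal axis), of the other pathway genes tested and reported here, 1 row per list; filled points had an adjusted p under 0.05, and dashed lines mark 1.5-fold. Filled points lie on both sides of 0 in 5 of the 7 lists, and *Bmf* at -2.44 lies farthest from 0.

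For each of the members with the largest rise and fall, the genes whose log2 CPM followed it most closely over the 6 libraries were sought among 8514 genes of at least 10 CPM. For *Bcl2l1* these were *Zhx2* (Pearson r 0.99965), *Atxn2* (0.99949) and *Prpf8* (0.99922). For *Bcl2l11* they were *Gmeb2* (0.99904), *Klf13* (0.99812) and *Lrp8* (0.99796). With 6 libraries in 2 groups, such values mostly express that a gene separates the groups, and *Zhx2* did so with a log2 fold change of 1.06 and *Gmeb2* with one of -0.51, each smaller than that of the member it followed.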

How the data were processed

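The authors deposited estimated counts for genes and for RefSeq transcripts: clean polyA reads had been aligned with HISAT2 and quantified with StringTie, whose prepDE script turns coverage into counts (build mm10, per the labels; versions, strand setting and read length setting are not given in the sources used here). The authors ran DESeq2. Here the deposited expected counts, which were whole, were tested in R 4.3.3 with edgeR 4.0.16: filterByExpr (minimum count 10), TMM, glmQLFit and glmQLFTest of 3 cKO against 3 control libraries without covariates, with Benjamini-Hochberg adjustment and cutoffs of 0.05 and 1.5-fold. DESeq2 1.42.0 was an alternative, and the same fit with diffSpliceDGE was used for transcripts. The quasi-likelihood intervals are 95%. Lengths and coding sequences are from GENCODE M21, gene locations and promoters from RefSeq GRCm38.p6; symbols matched 34674 of 36026 transcripts. Pathway genes named are those past both cutoffs with at least 1 CPM, up to 4 per list and direction, plus *Fadd*, *Casp8*, *Usp9x* and the untested or uncalled pro-survival genes, which were chosen after their values were seen. One gene that meets this rule is not reported here. The members and all lists were chosen with earlier results of these data known. On data simulated from the 13296 genes, with 200 genes changed 2-fold, edgeR recovered 72.4% of the 196 it tested and DESeq2 72.0% of 200, missing the recovery first required, and 91.0% and 92.3% of the 155 with at least 100 counts; 15 and 31 unchanged genes were called.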

Additional observations from a re-analysis of the deposited data

How the results depend on the processing

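Alternatives were other scalings (DESeq2 size factors, total counts), DESeq2, no filter or a stricter one, counts divided by 2, the replicate number as a block, *Xist* level as a covariate, a test against 1.5-fold, the transcript table summed, and leaving out each library. *Bcl2l1* and *Bcl2l11* kept direction and call in all 16. The summed transcript table returned the values of the main fit for every member, so it is not a separate check. *Bcl2*, *Mcl1*, *Bbc3*, *Bax*, *Bak1* and *Fas* lost the adjusted p under 0.05 only in the test against 1.5-fold, by construction stricter, which left 1 member higher and 1 lower (584 and 580 of all genes, from 1378 and 1415). *Bcl2a1b*, not called in any, ranged from -0.094 to 0.038 when single libraries were left out, changing sign without control replicate 3. *Bbc3* and *Mcl1* lie close to the 1.5-fold line. Members lower past both cutoffs were 2 with counts divided by 2 and with the replicate block, and 1 to 2 when single libraries were left out: *Bbc3* crossed the line without cKO replicate 3 (-0.68) or control replicate 3 (-0.63), and *Mcl1* without cKO replicate 2 (-0.59). Members higher past both cutoffs were 2 to 3, *Bax* being lost without cKO replicate 3 (0.54). With the replicate block, *Pmaip1* was also called (log2 fold change -0.29, adjusted p = 0.00991), and 3069 of all genes were higher and 3165 lower against 3204 and 3264. Libraries with the same number deviated together by -0.022, 0.293 and 0.383 (correlation over 8514 genes). Not every library correlated best with its own number. The numbers were therefore not taken as pairs, although the paper used paired t tests for proliferation, death and surface proteins of such cultures. DESeq2 and edgeR called 2832 and 2793 genes past both cutoffs. Differences in *Bcl2a1b* and in transcript shares are limited by near-identical copies and by the estimation of counts.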
